A study of Mus musculus with 12 samples.

Results

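The genes examined here make, attach and remove SUMO, or silence chromatin in ways tied to SUMO. The list holds 38 mouse genes in 2 classes: 16 SUMO enzymes and modifiers, and 22 silencing factors. A gene was measured when the array annotation gave it a probe set with no other symbol, and among several such probe sets that of highest mean signal stood for the gene. That left 37 of the 38 genes (15 SUMO enzymes and all 22 silencing factors), among 22180 genes in all. The gene not measured was Uba2, the catalytic subunit of the SUMO-activating enzyme.

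RNA levels came from 12 Affymetrix arrays of mouse embryonic stem (ES) cells, 3 per group. All groups carried a MERVL::tdTomato reporter, in which an endogenous retrovirus of the 2-cell embryo drives a red fluorescent protein, and all were grown on gelatin with serum replacement and LIF. KO+Mut cells were Dppa2/4 knockout cells transfected by lipofection with SUMO-deficient Dppa2 and Dppa4 fused to GFP, and KO+WT cells received the wild-type fusions. The add-back cells were sorted for GFP. KO cells were the Dppa2/4 knockout with no add-back, and parental cells carried the reporter alone. How many knockout clones were used is not stated, and neither transfection nor sorting is stated for KO or parental cells, so those steps and the add-back cannot be told apart except between the 2 add-back groups.

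SUMO is a small ubiquitin-like protein. The activating enzyme (Sae1 with Uba2) loads it, E3 ligases such as the Pias proteins and Ranbp2 promote its transfer to targets, and Senp proteases process the precursor and remove it again. Many of its targets are chromatin proteins: in ES cells Trim28 recruits the histone H3 lysine 9 methyltransferase Setdb1 to retroviral sequences, and the variant Polycomb complex PRC1.6 represses germline genes. Dppa2 and Dppa4, expressed in early embryos, bind DNA and switch on 2-cell-stage genes.

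Array medians lay between 3.73 and 3.88 (log2 signal), and no pair of arrays held identical values. Replicates are labelled biological without further detail, and p-values therefore reflect only how far these arrays spread. The targeted genes had log2 signals of 11.12 to 11.30 in KO+Mut, 10.79 to 11.34 in KO+WT and 8.13 to 8.69 in KO, against 9.35 to 10.17 in parental cells for Dppa2. Dppa4 lay at 10.39 to 10.67 in KO+Mut, 10.09 to 10.58 in KO+WT and 7.31 to 7.92 in KO, against 8.24 to 8.58 in parental cells. Where the probes lie relative to the deleted sequence is not known here. The 10 ES cell markers averaged 8.51 to 8.58 per array in KO+Mut, 8.56 to 8.62 in KO+WT and 8.66 to 8.75 in KO, against 8.55 to 8.64 in parental cells. None of the 10 had a group mean under the arrays' lower quartile. Of 10 fibroblast markers Dcn, Lum, Postn and S100a4 lay under it in every group. Col1a1, Col1a2, Col3a1, Thy1, Fn1 and Vim did so in no group. Fn1 averaged 10.46 in KO and 10.20 in parental cells, and Vim 9.42 and 9.87. The 9 measured markers of the 2-cell-like state averaged 7.65 to 8.50 in KO+Mut, 6.61 to 8.18 in KO+WT and 2.56 to 2.65 in KO, against 3.75 to 4.53 in parental cells. Of these, Tcstv1 and Zfp352 had group means under the lower quartile in every group, the add-backs included.

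None of the 37 genes passed the test in any of the 6 comparisons. Differences are given as log2 signal of the first group minus the second, from limma fitted to all 22180 genes with Benjamini-Hochberg adjustment over all of them and a threshold of 0.05. Called in either direction were 0 of 37 genes between KO and parental cells (0.239% of all genes), 0 between KO+WT and KO (0.83%), 0 between KO+Mut and KO (1.27%), 0 between the add-backs (0%), 0 between KO+WT and parental cells (0.55%) and 0 between KO+Mut and parental cells (0.992%). Beside background shares of this size, a count of 0 is not a result about these genes. The smallest adjusted p among the genes was 0.816 for KO against parental cells, 0.259 for KO+WT and 0.296 for KO+Mut against KO, 1.00 between the add-backs, and 0.238 for KO+WT and 0.221 for KO+Mut against parental cells (limma). The median 95% half-width of a difference was 0.294 for these genes, before any adjustment over genes.

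The genes were well expressed relative to the rest of the array. Of the 37, 36 had a mean above the median of all gene means, and 0 had an array under that array's lower quartile. Senp7, a protease that trims SUMO chains, was the only one with an array below the array median.

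Although no gene passed, the differences lay mostly on one side of 0. Against KO, 32 of 37 genes had a negative difference in KO+WT (median -0.145) and 33 in KO+Mut (median -0.146), where 50.1% and 51.3% of all genes did. Centring each array on its median gave member medians of -0.222 in KO+WT and -0.226 in KO+Mut against KO, with 37 of 37 negative in both. It also made 63.7% and 65.8% of all genes negative, and genes with a mean above the median gene had medians of -0.138 and -0.149. With quantile normalization repeated the member medians were -0.110 in KO+WT (31 negative) and -0.099 in KO+Mut (30 negative) against KO. Of all genes 50.4% and 53.1% were then negative. Against parental cells that setting gave -0.118 in KO+WT (29 negative) and -0.134 in KO+Mut (31 negative). On the values as deposited, 32 genes were negative in KO+WT (median -0.149) and 35 in KO+Mut (median -0.138) against parental cells. Of all genes 49.3% and 50.5% were. KO cells differed less from parental cells, with 24 negative differences and a median of -0.035, and between KO+Mut and KO+WT the median was 0.006, with 17 negative. The comparisons share arrays (KO in some, parental in others), so they do not count as separate observations of one shift. Genes with a mean above the median gene, a set chosen after values were seen, also lay mostly below 0. Of these, 63.1% were negative in KO+WT (median -0.061) and 63.6% in KO+Mut (median -0.069) against KO. Against parental cells 60.5% were negative in KO+WT (median -0.045) and 60.7% in KO+Mut (median -0.053). Of the 10 ES cell markers, 8 were negative in KO+WT (median -0.149) and 7 in KO+Mut (median -0.207) against KO. Against parental cells only 4 were negative in KO+WT (median 0.078) and 5 in KO+Mut (median -0.006). The part of these markers in the result was not tested. Because the RNA came from whole cultures or sorted pools, fewer cells of a type and less RNA per cell cannot be told apart.

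**Figure D1:**
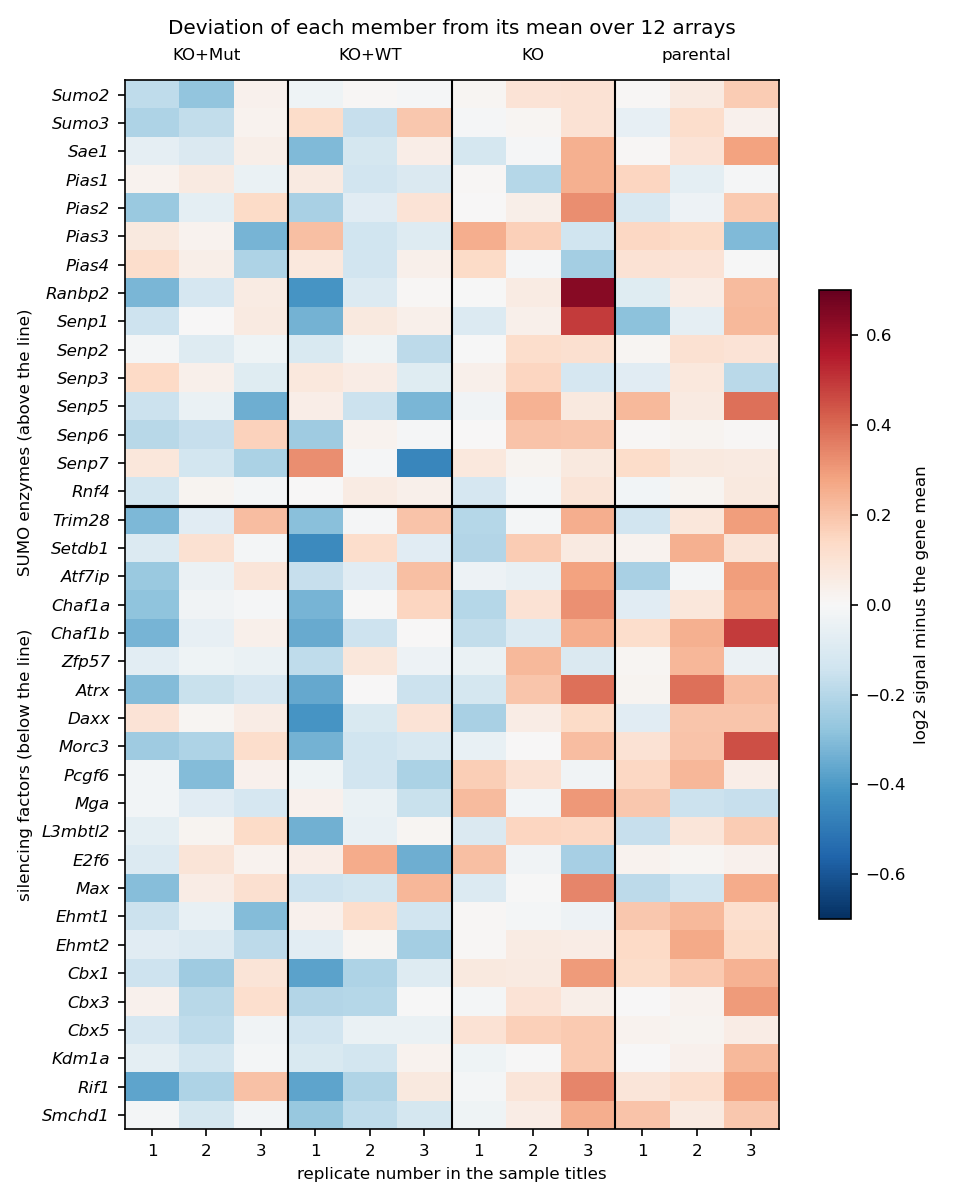
Deviation of each gene's log2 signal from its mean over the 12 arrays, in colour, with genes in rows by role and arrays in columns by group. KO+Mut and KO+WT columns are mostly below the mean, and differences between arrays of one group are often as large as those between groups.

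Most genes shared an order of group means. In 27 of 37 genes (73.0%; 9 of 15 SUMO enzymes and 18 of 22 silencing factors) the means of both add-backs lay below those of both KO and parental cells, against 25.7% of all genes and 40.0% of genes above the median. Parental cells had the highest mean in 23 genes and KO cells in 11, while KO+WT had the lowest in 18 and KO+Mut in 16. This order is a description of group means and was not tested.

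**Figure D2:**
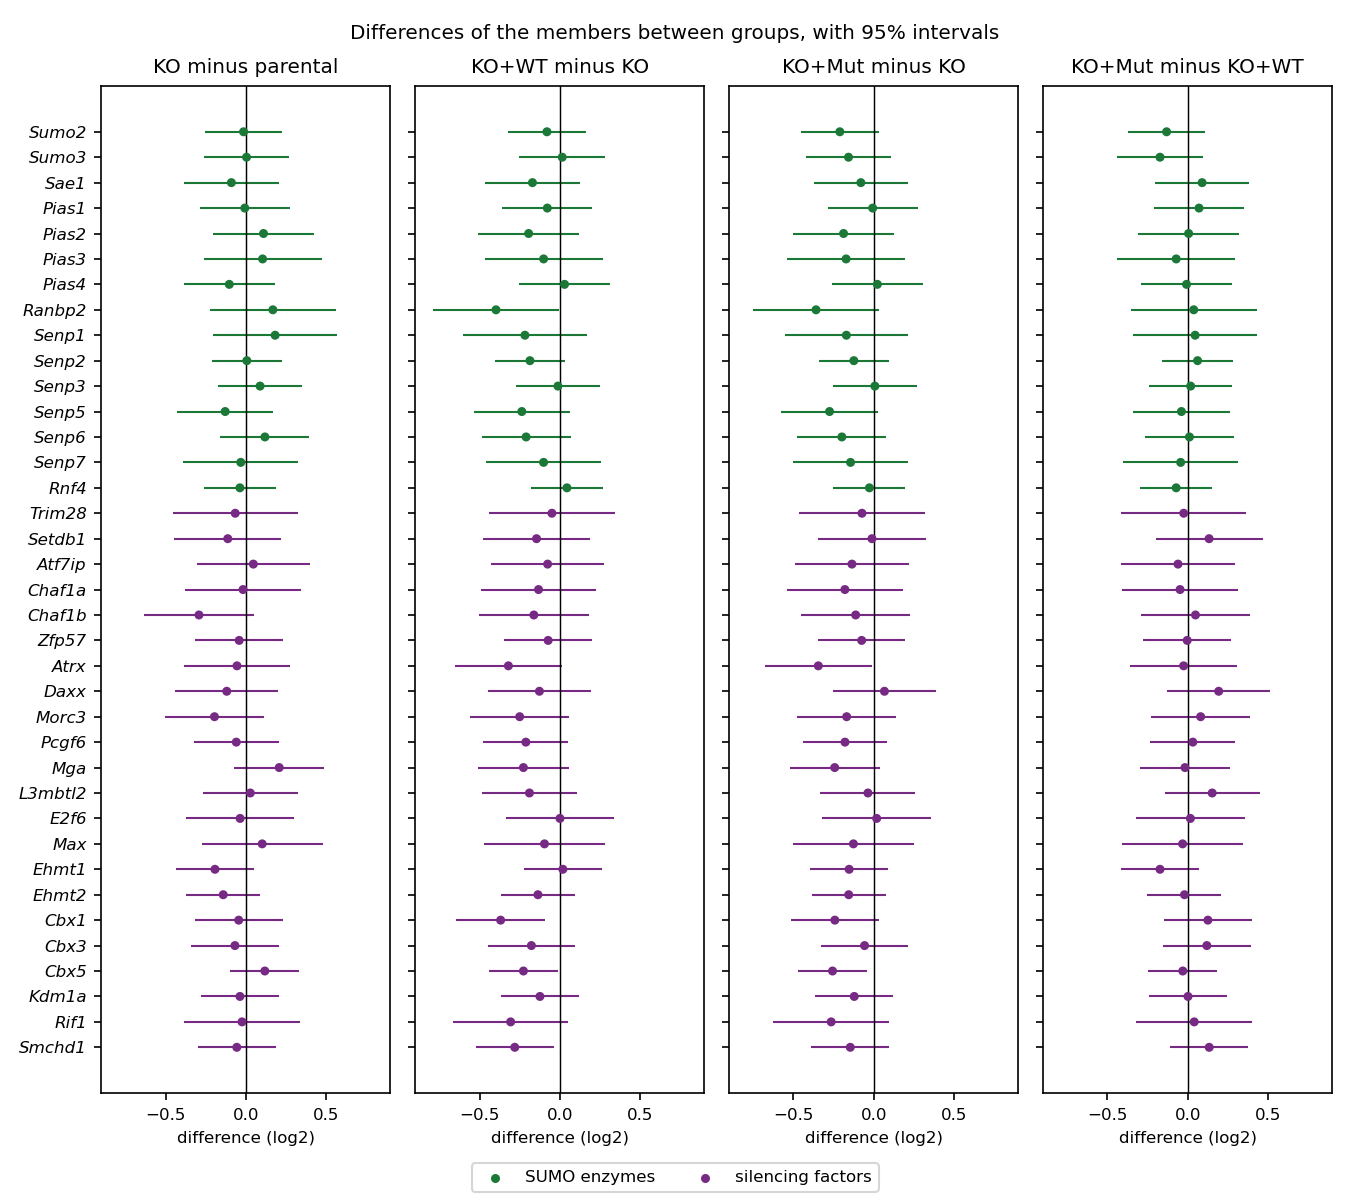
Differences in log2 signal between groups for the 37 genes, as points with 95% intervals, in 4 comparisons. SUMO enzymes are green and silencing factors purple, and points left of the line at 0 are lower in the group named first. No interval extends beyond -0.79 or 0.57.

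The SUMO modifiers themselves differed little. Sumo2, a modifier that can form chains, gave log2 signals on arrays 1, 2 and 3 of 7.63, 7.53 and 7.84 on KO+Mut arrays, 7.78, 7.82 and 7.80 on KO+WT arrays and 7.83, 7.91 and 7.91 on KO arrays, against 7.82, 7.88 and 7.99 in parental cells. The KO+Mut arrays numbered 1 and 2 were the lowest of all, and the third lay within the range of the KO and parental arrays, below which all KO+WT arrays lay. Its differences were -0.21 (SE 0.11, limma adjusted p = 0.477) in KO+Mut and -0.08 in KO+WT against KO, and -0.13 between the add-backs (95% interval -0.37 to 0.11). For its close relative Sumo3 the values were 5.90, 5.95 and 6.14 on KO+Mut arrays, 6.25, 5.96 and 6.31 on KO+WT arrays and 6.11, 6.13 and 6.22 on KO arrays, against 6.06, 6.24 and 6.15 in parental cells. All 4 groups overlapped. Sumo3 was -0.17 between the add-backs (95% interval -0.44 to 0.10). A second probe set of this gene, of lower mean signal (4.23 against 6.12), gave 0.18, and -0.38 rather than 0.02 for KO+WT against KO. In those comparisons its direction depends on the probe set. In KO+Mut both probe sets were negative, at -0.16 and -0.20 against KO and at -0.15 and -0.31 against parental cells.

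Sae1, the subunit that pairs with Uba2 in the activating enzyme, read 9.13, 9.09 and 9.23 on KO+Mut arrays, 8.88, 9.06 and 9.23 on KO+WT arrays and 9.06, 9.18 and 9.44 on KO arrays, against 9.20, 9.28 and 9.47 in parental cells. In each group the array numbered 3 was highest. Its difference was -0.26 in KO+WT against parental cells (SE 0.14, limma adjusted p = 0.539) and -0.09 in KO.

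Of the 5 E3 ligases, 4 were negative in KO+WT and 4 in KO+Mut against KO, with medians of -0.10 and -0.17. The lowest was Ranbp2, a nuclear pore protein with SUMO ligase activity, at 8.24, 8.45 and 8.62 on KO+Mut arrays, 8.15, 8.47 and 8.57 on KO+WT arrays and 8.56, 8.62 and 9.20 on KO arrays, against 8.48, 8.62 and 8.78 in parental cells. One KO array, at 9.20, stood above all others, and the remaining ranges overlapped. Ranbp2 differed by -0.40 in KO+WT (SE 0.18, limma adjusted p = 0.410) and -0.36 in KO+Mut against KO (adjusted p = 0.447), and by 0.17 in KO against parental cells (adjusted p = 0.980). Pias1, Pias2, Pias3 and Pias4, ligases that also act as cofactors of transcription factors, lay between -0.20 and 0.03 against KO in both add-backs.

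The 6 Senp proteases had negative differences in 6 of 6 cases in KO+WT and 5 of 6 in KO+Mut against KO, with medians of -0.20 and -0.16. Senp1, which matures SUMO precursors and removes the protein, read 7.44, 7.58 and 7.64 on KO+Mut arrays, 7.25, 7.65 and 7.62 on KO+WT arrays and 7.48, 7.62 and 8.07 on KO arrays, against 7.29, 7.52 and 7.81 in parental cells. The KO array numbered 3 was the highest and all groups overlapped. Senp2, a related protease, read 8.01, 7.93 and 7.99 on KO+Mut arrays, 7.91, 7.99 and 7.84 on KO+WT arrays and 8.02, 8.15 and 8.13 on KO arrays, against 8.04, 8.13 and 8.12 in parental cells. Every add-back array lay below every KO and every parental array. Differences of Senp2 against KO were -0.19 in KO+WT (SE 0.10, limma adjusted p = 0.502) and -0.12 in KO+Mut.

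Senp5, a nucleolar protease, was the enzyme with the largest difference from parental cells. It read 5.67, 5.78 and 5.48 on KO+Mut arrays, 5.87, 5.67 and 5.50 on KO+WT arrays and 5.80, 6.07 and 5.89 on KO arrays, against 6.05, 5.88 and 6.21 in parental cells. All add-back arrays were below all parental arrays, and KO+Mut was also below KO, which KO+WT overlapped. Against parental cells it was -0.40 in KO+Mut (SE 0.14, limma adjusted p = 0.257) and -0.36 in KO+WT (adjusted p = 0.359). Senp3, another nucleolar protease, was at 0.10 in KO+Mut and 0.08 in KO+WT. Senp6 and Senp7, which act on SUMO chains, and Rnf4, the ubiquitin ligase that recognises those chains, lay between -0.21 and 0.05 in both add-backs against KO.

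Across the 15 SUMO enzymes the median difference (log2) was 0.005 in KO against parental cells, -0.101 in KO+WT and -0.157 in KO+Mut against KO. It was 0.006 between the add-backs (-0.0093 with quantile normalization repeated), and -0.083 in KO+WT and -0.080 in KO+Mut against parental cells. The sign for KO against parental cells was not stable, running from -0.0285 without KO replicate 3 to 0.0249 without parental replicate 2. Nor was it between the add-backs, from -0.0281 without KO+Mut replicate 1 to 0.0224 without KO+Mut replicate 3. The KO+WT value against KO reached -0.162 without KO replicate 2 and -0.178 with centred arrays.

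Nearly all silencing factors had small negative differences in the add-backs. Medians over the 22 genes were -0.049 in KO against parental cells (17 negative), -0.153 in KO+WT (20 negative) and -0.141 in KO+Mut (20 negative) against KO, and -0.208 in KO+WT (21 negative) and -0.148 in KO+Mut (22 negative) against parental cells. Between the add-backs the median was 0.010, with 10 negative. Single arrays moved these medians: that of KO against parental cells was -0.123 without KO replicate 3 and 0.000494 without KO replicate 1. KO+WT gave -0.0937 against KO and -0.125 against parental cells without KO+WT replicate 1, KO+Mut gave -0.0761 against KO without KO replicate 3, and the add-backs differed by -0.0271 without KO+Mut replicate 3 and 0.0819 without KO+Mut replicate 1.

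Trim28, the corepressor that zinc-finger proteins bring to retroviral sequences, read 10.48, 10.71 and 11.01 on KO+Mut arrays, 10.50, 10.78 and 10.99 on KO+WT arrays and 10.59, 10.78 and 11.04 on KO arrays, against 10.66, 10.87 and 11.08 in parental cells. Group means lay within 0.14 of each other, while the arrays numbered 3 and 1 differed by 0.48 on average. Setdb1, its methyltransferase partner, read 7.03, 7.23 and 7.11 on KO+Mut arrays, 6.68, 7.24 and 7.04 on KO+WT arrays and 6.91, 7.29 and 7.18 on KO arrays, against 7.15, 7.37 and 7.21 in parental cells. One KO+WT array, at 6.68, was the lowest, and all groups overlapped. Trim28 and Setdb1 differed between the add-backs by -0.02 and 0.13. All 6 genes of the Trim28 axis (with Atf7ip, a Setdb1 cofactor, the histone chaperone subunits Chaf1a and Chaf1b, and the imprint-protecting zinc-finger protein Zfp57) were negative in both add-backs against KO, with medians of -0.09 in KO+Mut and -0.10 in KO+WT.

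Chaf1b, a subunit of the chaperone CAF-1 that deposits histones behind replication forks, had the largest differences from parental cells within that axis. It read 8.23, 8.50 and 8.59 on KO+Mut arrays, 8.20, 8.41 and 8.56 on KO+WT arrays and 8.38, 8.46 and 8.81 on KO arrays, against 8.68, 8.80 and 9.05 in parental cells. All add-back arrays lay below all parental arrays, and the KO arrays spanned both. Chaf1b was -0.40 in KO+Mut (SE 0.16, limma adjusted p = 0.339) and -0.45 in KO+WT against parental cells (SE 0.16, adjusted p = 0.312), and -0.29 in KO (adjusted p = 0.816).

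Atrx, Daxx and Morc3 act together on heterochromatin: Atrx and Daxx deposit histone H3.3, and Morc3 is a SUMO-binding ATPase of nuclear bodies. Atrx read 7.63, 7.78 and 7.81 on KO+Mut arrays, 7.57, 7.93 and 7.78 on KO+WT arrays and 7.81, 8.13 and 8.32 on KO arrays, against 7.95, 8.32 and 8.15 in parental cells. KO+Mut and KO+WT arrays lay below every parental array and overlapped KO. Atrx was -0.35 in KO+Mut (SE 0.15, limma adjusted p = 0.380) and -0.32 in KO+WT against KO. Morc3 read 7.44, 7.47 and 7.81 on KO+Mut arrays, 7.36, 7.55 and 7.58 on KO+WT arrays and 7.64, 7.69 and 7.91 on KO arrays, against 7.79, 7.89 and 8.14 in parental cells. Every KO+WT array lay below every KO and parental array, and KO+Mut overlapped both. It differed by -0.44 in KO+WT against parental cells (SE 0.14, limma adjusted p = 0.257). Daxx read 7.95, 7.87 and 7.90 on KO+Mut arrays, 7.44, 7.75 and 7.95 on KO+WT arrays and 7.62, 7.90 and 7.99 on KO arrays, against 7.77, 8.05 and 8.04 in parental cells. Here the KO+Mut array numbered 1 lay above that of the other groups, and the difference between the add-backs was 0.19 (95% interval -0.13 to 0.52), the largest in that comparison.

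Pcgf6 is the subunit that defines PRC1.6, and Mga, Max, E2f6 and L3mbtl2 help it bind DNA or nucleosomes. Pcgf6 read 7.22, 6.94 and 7.27 on KO+Mut arrays, 7.21, 7.11 and 7.02 on KO+WT arrays and 7.41, 7.34 and 7.22 on KO arrays, against 7.39, 7.47 and 7.29 in parental cells. All KO+WT arrays were below all KO and parental arrays, and KO+Mut was below parental only. Pcgf6 was -0.18 in KO+Mut and -0.21 in KO+WT against KO. Of the 5 PRC1.6 genes 4 were negative in each add-back against KO, and the exception, E2f6, was at 0.02 in KO+Mut and 0.00 in KO+WT. Mga, the scaffold, had a difference of 0.21 in KO against parental cells and -0.24 in KO+Mut against KO, neither past the test.

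Ehmt1 and Ehmt2 form the dimethyltransferase of histone H3 lysine 9, and Cbx1, Cbx3 and Cbx5 are the HP1 proteins that read that methylation. Ehmt1 read 6.89, 6.99 and 6.74 on KO+Mut arrays, 7.07, 7.16 and 6.91 on KO+WT arrays and 7.05, 7.02 and 7.01 on KO arrays, against 7.23, 7.27 and 7.16 in parental cells. All KO+Mut arrays lay below all KO and parental arrays and overlapped KO+WT, and all KO arrays lay below all parental arrays. Ehmt1 was -0.34 in KO+Mut against parental cells (SE 0.11, limma adjusted p = 0.221) and -0.17 between the add-backs (95% interval -0.41 to 0.07). Ehmt2 read 7.25, 7.23 and 7.14 on KO+Mut arrays, 7.25, 7.34 and 7.09 on KO+WT arrays and 7.33, 7.38 and 7.38 on KO arrays, against 7.47, 7.59 and 7.46 in parental cells. All KO+Mut, KO+WT and KO arrays lay below all parental arrays, and KO+Mut also lay below KO. Ehmt2 was -0.30 in KO+Mut against parental cells (SE 0.11, adjusted p = 0.295, limma).

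Cbx1 read 8.24, 8.13 and 8.47 on KO+Mut arrays, 8.01, 8.16 and 8.29 on KO+WT arrays and 8.45, 8.44 and 8.68 on KO arrays, against 8.51, 8.56 and 8.63 in parental cells. Every KO+WT array lay below every KO and parental array, and all KO+Mut arrays lay below parental cells, the one numbered 3 overlapping KO. Cbx1 was -0.37 in KO+WT against KO (SE 0.13, limma adjusted p = 0.259) and -0.41 against parental cells (SE 0.13, adjusted p = 0.238). Cbx5 read 8.48, 8.41 and 8.56 on KO+Mut arrays, 8.46, 8.54 and 8.55 on KO+WT arrays and 8.69, 8.76 and 8.77 on KO arrays, against 8.61, 8.61 and 8.64 in parental cells. Its arrays differed least within groups, with a pooled SD of 0.05, and both add-backs lay below KO and parental cells on all arrays while KO lay above parental cells on all arrays. Against KO it was -0.26 in KO+Mut (SE 0.10, limma adjusted p = 0.296) and -0.23 in KO+WT (adjusted p = 0.389). Cbx3 has 4 probe sets, which gave differences of -0.02 to -0.37 in KO+WT against KO.

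Smchd1, an SMC-family protein of the inactive X chromosome, read 7.26, 7.15 and 7.26 on KO+Mut arrays, 7.01, 7.10 and 7.16 on KO+WT arrays and 7.25, 7.33 and 7.53 on KO arrays, against 7.48, 7.34 and 7.46 in parental cells. All add-back arrays lay below all parental arrays. It was -0.15 in KO+Mut and -0.28 in KO+WT against KO (SE 0.11, limma adjusted p = 0.340 for KO+WT). Rif1, a replication-timing factor that represses retroviral sequences in ES cells, was at -0.27 in KO+Mut and -0.31 in KO+WT, and the histone demethylase Kdm1a at -0.12 in both.

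**Figure D3:**
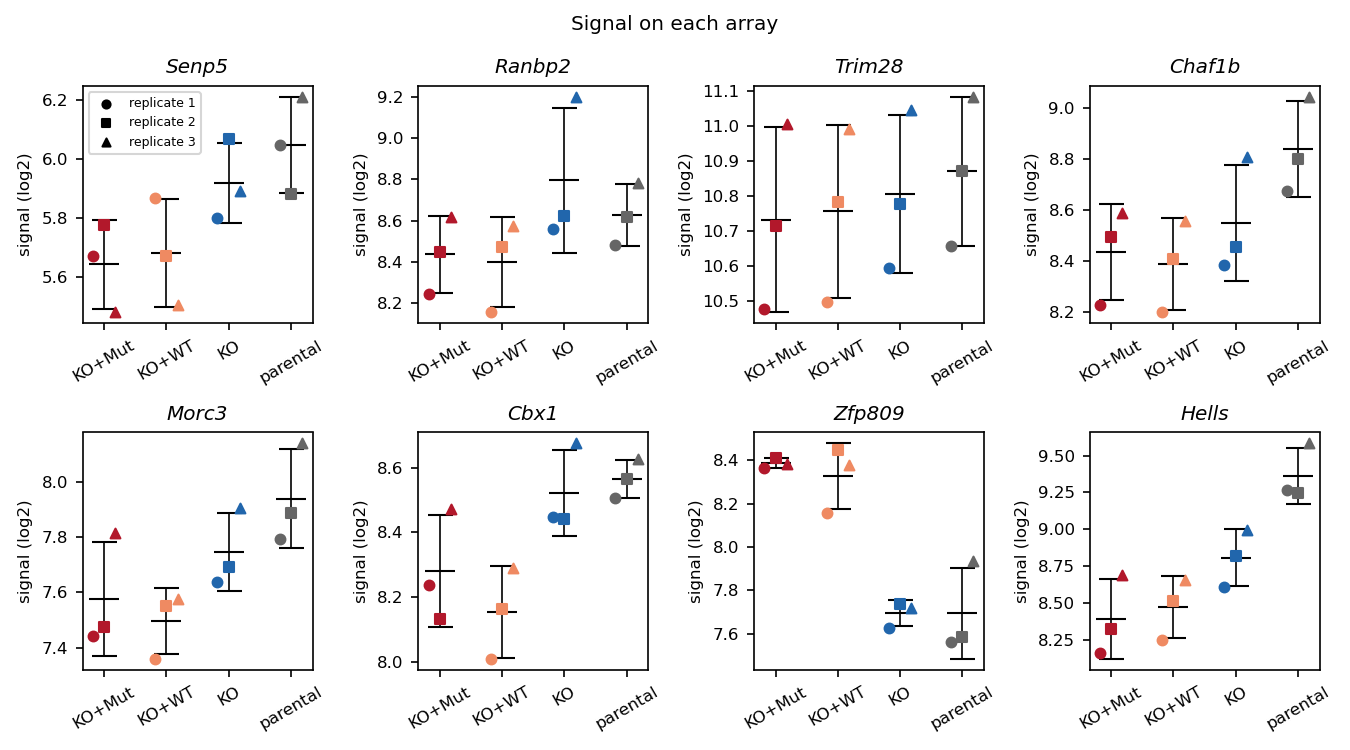
Log2 signal (vertical axis, a scale of its own for each gene) of 8 genes on each array, by group, with symbols for replicate numbers and bars for the mean and SD of 3 arrays. Trim28 differs more between replicate numbers than between groups, Zfp809 is highest in both add-backs, and Hells is highest in parental cells.

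Genes whose groups did not overlap were counted beside the same share over all genes. In KO against parental cells 2 were lower (Ehmt1 and Ehmt2, 6.83% of all genes) and 1 higher (Cbx5, 6.11%). Against KO, 6 were lower in KO+Mut (8.77%) and 7 in KO+WT (7.43%), which is 16.2% and 18.9% of the 37 genes. Among genes above the median signal the shares were 13.8% in KO+Mut and 11.7% in KO+WT against KO. Against parental cells, 11 were lower in KO+Mut (9.38%) and 13 in KO+WT (7.8%), while genes above the median signal had shares of 14.4% in KO+Mut and 12.03% in KO+WT. None was higher against KO in KO+Mut (9.24%) or KO+WT (8.61%), or against parental cells in KO+Mut (8.63%) or KO+WT (8.05%), and none differed without overlap between the add-backs (3.62% lower and 3.07% higher). At an unadjusted p under 0.05 (limma), 0 genes were lower in KO against parental cells (3.94%), 2 in KO+Mut (5.49%) and 4 in KO+WT against KO (4.75%), 7 in KO+Mut (5.52%) and 8 in KO+WT against parental cells (4.68%), and 0 between the add-backs (1.66%). In the upward direction there were 0 in KO against parental cells (3%), 0 in KO+Mut (7%) and KO+WT (7.25%) against KO, 0 in KO+Mut (5.94%) and KO+WT (6.04%) against parental cells, and 0 between the add-backs (1.38%). Of the 11090 genes above the median signal, 967 in KO+Mut and 792 in KO+WT were lower against KO at that unadjusted p. Against parental cells 943 in KO+Mut and 783 in KO+WT were.

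Endoderm markers differed along with the comparisons against parental cells. Of 10 primitive and parietal endoderm markers, 10 had negative differences in KO+Mut, KO+WT and KO against parental cells, and array means were 5.91 to 6.12 in KO+Mut, 6.01 to 6.21 in KO+WT and 5.87 to 6.31 in KO, against 6.49 to 7.17 in parental cells. Among them Lama1 and Lamb1, laminin genes, passed the test in both add-backs: Lamb1 fell by 0.95 in KO+Mut and by 0.92 in KO+WT (limma adjusted p = 0.0107 and 0.0222). Their part in the differences of the SUMO and silencing genes was not tested.

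Replicate numbers are shared by the groups, and the arrays numbered 3 stood high for many silencing factors. In 13 of 37 genes (35.1%, against 8.17% of all genes) the array numbered 3 was highest in all 4 groups, 10 of them silencing factors (Trim28, Atf7ip, Chaf1a, Chaf1b, Morc3, Max, Cbx1, Cbx5, Kdm1a and Rif1). Averaged over the 22 silencing factors, deviations from the mean over all arrays were -0.146, -0.088 and 0.017 in KO+Mut, -0.218, -0.056 and -0.033 on KO+WT arrays and -0.034, 0.059 and 0.167 in KO, against 0.025, 0.119 and 0.188 in parental cells. For this average every add-back array lay below every parental array, while the KO arrays overlapped all other groups. For the SUMO enzymes every add-back array (-0.082 to -0.050) lay below every KO and parental array (0.010 to 0.146). What a number stands for is not stated in the labels. Deviations of same-numbered arrays were positively correlated in all 6 comparisons. As an alternative, a fit with the replicate number as a block was made for all of them. In that fit Chaf1b, Morc3 and Cbx1 passed in KO+WT against parental cells (3 of 37, 0.996% of all genes lower), at -0.45, -0.44 and -0.41 with limma adjusted p = 0.0293, 0.0343 and 0.0473. Chaf1b passed in KO+Mut against parental cells (1 of 37, 1.54% lower), at -0.40 with adjusted p = 0.0338. Each of these calls was lost when any 1 of the 6 arrays was left out, with adjusted p of 0.0739 to 0.116 for Chaf1b, 0.0591 to 0.134 for Morc3 and 0.0895 to 0.189 for Cbx1 in KO+WT, and 0.0754 to 0.132 for Chaf1b in KO+Mut. In either direction the blocked fit called 2.06% of all genes in KO+WT and 3.13% in KO+Mut against parental cells, and it called 0 of the 37 genes in KO against parental cells (0.618%), in KO+WT (2.23%) and KO+Mut (3.23%) against KO and between the add-backs (0%).

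**Figure D4:**
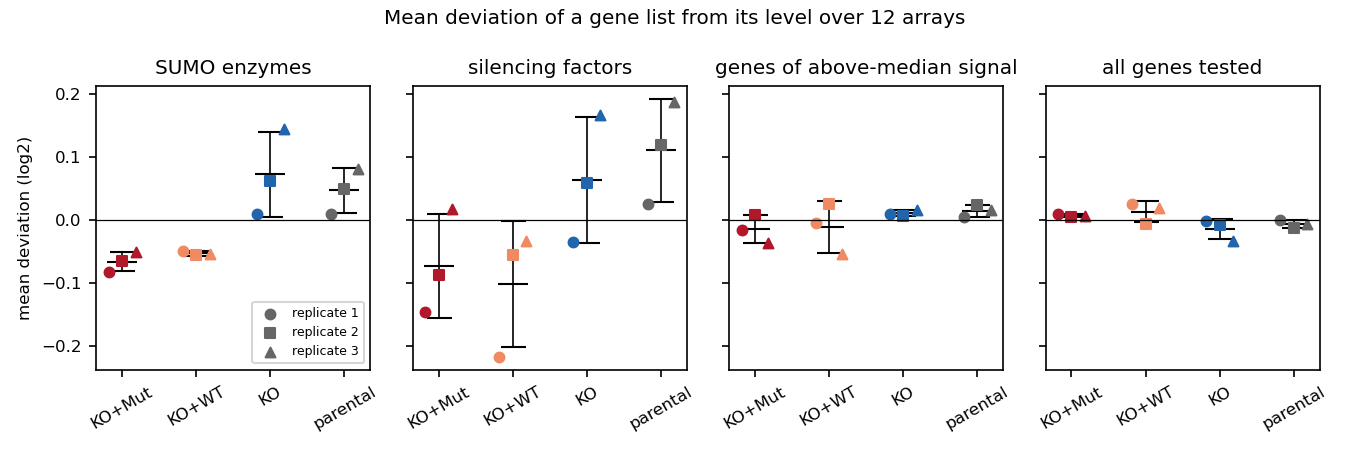
Mean deviation of 4 gene lists from their level over the 12 arrays, in log2 signal, for each array by group, with the mean and SD of 3 arrays. Of the silencing factors the KO+WT array numbered 1 has the lowest value at -0.218, and the parental array numbered 3 the highest at 0.188.

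The promoters of these 3 genes are shown because they carried the blocked calls. Each window runs from 250 bases before to 50 after the start site, from RefSeq (GRCm38.p6, plus strand), and capitals mark matches to the E2F-type motif TTCCCGC or its reverse complement GCGGGAA, searched on both strands. Chaf1b lies at chr16:93883651-93883950 and holds 2 matches, Morc3 at chr16:93831871-93832170 and Cbx1 at chr11:96788885-96789184, each with 0.

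Chaf1b: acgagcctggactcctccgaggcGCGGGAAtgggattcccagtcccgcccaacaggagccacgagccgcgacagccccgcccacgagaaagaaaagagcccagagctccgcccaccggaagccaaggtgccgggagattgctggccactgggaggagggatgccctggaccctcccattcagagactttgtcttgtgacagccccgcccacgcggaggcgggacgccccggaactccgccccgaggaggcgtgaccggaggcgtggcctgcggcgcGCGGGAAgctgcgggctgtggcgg
Morc3: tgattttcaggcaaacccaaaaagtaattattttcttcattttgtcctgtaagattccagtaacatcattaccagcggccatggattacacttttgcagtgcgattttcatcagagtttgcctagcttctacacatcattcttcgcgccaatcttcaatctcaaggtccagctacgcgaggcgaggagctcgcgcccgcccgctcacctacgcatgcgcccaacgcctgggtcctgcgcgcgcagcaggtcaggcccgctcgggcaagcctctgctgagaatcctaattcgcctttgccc
Cbx1: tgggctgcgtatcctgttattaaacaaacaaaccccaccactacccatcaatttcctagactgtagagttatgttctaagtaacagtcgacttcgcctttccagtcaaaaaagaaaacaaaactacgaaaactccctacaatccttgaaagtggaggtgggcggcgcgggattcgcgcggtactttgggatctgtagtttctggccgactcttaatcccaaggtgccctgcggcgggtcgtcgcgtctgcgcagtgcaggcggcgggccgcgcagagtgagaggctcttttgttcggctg

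The motif was in 7 of the 49 promoters found for these genes (14.3%, from 6 of 33 genes), against 4.60% of 32851 promoters. The E-box CACGTG, which Mga and Max bind, was in 6 of the 49 (12.2%, from 5 of 33 genes), against 7.15%. The gene promoters had a median G+C content of 61.3%, against 52.7% for all promoters. No share was taken over promoters of like G+C content or signal, so neither motif contrast was tested as a trait of the list. Chaf1b and Morc3 are neighbours, with no gene between them on chromosome 16 in the RefSeq table. Their flanking genes were looked at after these values were seen: those measured, Cbr1, Cbr3 and Dop1b on one side and Cldn14, Sim2, Hlcs and Ripply3 on the other, lay between -0.57 and 0.36 in KO+WT against parental cells, and none passed the test.

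Other genes of the same pathways gave 2 that passed the test. Of 12 further SUMO pathway genes 0 passed in any comparison (limma), and at an unadjusted p under 0.05 no comparison had more than 2 of them. Of 24 further silencing genes 1 was called higher in KO+Mut (1.12% of all genes) and in KO+WT (0.73%) against KO, and 1 higher and 1 lower against parental cells in KO+Mut (0.654% and 0.338%) and in KO+WT (0.32% and 0.23%). The gene called higher was Zfp809, a zinc-finger protein that recruits Trim28 to retroviral sequences in mouse ES cells. It read 8.37, 8.41 and 8.38 in KO+Mut, 8.16, 8.45 and 8.38 on KO+WT arrays and 7.63, 7.74 and 7.72 in KO, against 7.56, 7.58 and 7.94 in parental cells. Both add-backs lay above KO and parental cells on all arrays. Zfp809 rose by 0.69 in KO+Mut (SE 0.13, limma adjusted p = 0.0162) and by 0.63 in KO+WT against KO (SE 0.13, adjusted p = 0.0384), and against parental cells by 0.69 in KO+Mut (adjusted p = 0.0203) and 0.63 in KO+WT (adjusted p = 0.0477). The call against KO was lost in KO+Mut without any 1 of the 6 arrays (limma adjusted p 0.0518 to 0.0814), and in KO+WT without any array but KO+WT replicate 1 (up to 0.140). Against parental cells it was kept in KO+Mut only without parental replicate 3 (up to 0.105), and in KO+WT only without parental replicate 3 or KO+WT replicate 1 (up to 0.208). With the replicate block the call against parental cells held in 3 of 6 such fits in KO+Mut (limma adjusted p up to 0.0554). In KO+WT it held in 2 of 6 (up to 0.0985).

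The gene called lower was Hells, a chromatin remodeller needed for DNA methylation of repeats. It read 8.16, 8.32 and 8.69 in KO+Mut, 8.24, 8.51 and 8.66 on KO+WT arrays and 8.61, 8.82 and 8.99 in KO, against 9.26, 9.24 and 9.58 in parental cells. Parental arrays stood above all others. Hells fell by 0.97 in KO+Mut (SE 0.17, limma adjusted p = 0.0147) and by 0.89 in KO+WT against parental cells (SE 0.17, adjusted p = 0.0384), and with the replicate block both calls held when each array was left out in turn. Without the block the KO+WT call was lost without any 1 array (limma adjusted p 0.0556 to 0.162), and the KO+Mut call without parental replicate 3, KO+Mut replicate 1 or KO+Mut replicate 2 (up to 0.0806). Its difference of -0.56 in KO had an adjusted p of 0.375, and 0.0297 with the replicate block. Zmiz1, a Pias-like SUMO ligase, was at 0.64 in KO+Mut against KO (adjusted p = 0.218), and Desi2, a deSUMOylating peptidase, at -0.40 (adjusted p = 0.169). Yaf2, a Polycomb subunit, was at -0.44 in KO against parental cells (adjusted p = 0.371), and between the add-backs Nsmce2, a SUMO ligase, and Zmym2, a SUMO-binding corepressor subunit, were at 0.14 and 0.13 (adjusted p = 1.00 for both).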

How the data were processed

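Total RNA of 12 samples was labelled with the Affymetrix WT Plus kit, per the labels' protocols. The authors deposited normalized log2 signals for each probe set. The Transcriptome Analysis Console was used, per the submitters' processing notes. How background was corrected and probes summarized is not stated, so compression of low signals cannot be judged, and the log2 scale was inferred from the range of values. The number of arrays limits the precision.

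Of 41345 probe sets, 23521 had 1 gene symbol, 1814 several and 16010 none. The 22180 genes entered lmFit and eBayes of limma 3.58.1 (R 4.3.3), with 1 mean per group over all 12 arrays and two-sided tests in 6 comparisons. The fit was also run on simulated data with independent noise on each array. That simulation lacked the shared deviations of same-numbered arrays, so it cannot judge the fit under them. Tables used pandas 2.3.3 under Python 3.11.15, and figures matplotlib 3.10.9. Members and lists were chosen with earlier results of these data known, so lists are described by counts and medians only.

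Values on every array are given for members past the threshold, the 2 of smallest p per class and comparison, and Sumo2, Sumo3, Trim28, Setdb1 and Pcgf6. Other pathway genes are named if past the threshold or among the smallest p. Replicate numbers come from the sample titles. Same-numbered arrays deviated together, with every correlation above 0.1, for KO against parental cells (0.36, 0.15 and 0.42) and KO+Mut against KO+WT (0.40, 0.21 and 0.47). The same held for KO+WT (0.33, 0.15 and 0.31) and KO+Mut against parental cells (0.33, 0.13 and 0.36). KO+WT against KO (0.31, 0.06 and 0.29) and KO+Mut against KO (0.31, 0.08 and 0.36) fell short of 0.1 at replicate 2 only. Alternatives were a replicate block, median centring, repeated quantile normalization, a filter at percentile 25 of signal, the mean of probe sets, eBayes with trend and robust variances, array weights, fits of only the 6 arrays compared, and leaving out each array. Blocked fits that also left out an array were added after seeing the data.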

Additional observations from a re-analysis of the deposited data

How the results depend on the processing

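The number of members called stayed at 0 in every comparison under the alternatives without a block, each left-out array included. With the replicate block it was 3 for KO+WT and 1 for KO+Mut against parental cells, and 0 in the other 4 comparisons. For KO+WT and KO+Mut against KO the block raised the share of all genes called to 2.23% and 3.23%, against 0.83% and 1.27% without it. Hells then had an adjusted p of 0.0392 in KO+Mut against KO (limma). There, same-numbered arrays fell short of a correlation of 0.1 at replicate 2 only (0.06 and 0.08), beside 0.13 in KO+Mut against parental cells. These correlations give no clear split into paired and unpaired comparisons, and the fit without a block takes no account of replicate numbers. Against parental cells the block gave 2.06% in KO+WT, 3.13% in KO+Mut and 0.618% in KO, against 0.55%, 0.992% and 0.239%. No silencing-factor median moved beyond its spread between arrays, but without 1 array the medians ranged from -0.123 to 0.000494 in KO against parental cells, -0.228 to -0.0937 (KO+WT) and -0.197 to -0.0761 (KO+Mut) against KO, -0.0271 to 0.0819 between the add-backs, and -0.263 to -0.125 (KO+WT) and -0.205 to -0.132 (KO+Mut) against parental cells. Some SUMO enzyme medians moved further than their spread. With arrays centred on their median they were -0.178 in KO+WT and -0.237 in KO+Mut against KO, and -0.141 and -0.140 against parental cells, while the median of all genes moved to -0.078, -0.087, -0.055 and -0.063. With quantile normalization repeated the median was -0.0093 between the add-backs and -0.0389 in KO+WT against parental cells. The mean of probe sets gave -0.170 in KO+WT against KO, and array weights gave -0.118 in KO+Mut against parental cells. With all arrays the medians against parental cells were -0.083 in KO+WT and -0.080 in KO+Mut, nearer 0 than in any unblocked fit without 1 array. Without 1 array the medians ranged from -0.162 to -0.0807 (KO+WT) and -0.164 to -0.107 (KO+Mut) against KO, -0.0281 to 0.0224 between the add-backs, and -0.111 to -0.0935 (KO+WT) and -0.138 to -0.0989 (KO+Mut) against parental cells. With the block as well, the values that moved were -0.122 without KO+WT replicate 2 for KO+WT, and -0.125 and -0.121 without parental replicate 1 and KO+Mut replicate 3 for KO+Mut against parental cells. Centring subtracts the same amount from every gene on an array, and Sumo3 was the only SUMO enzyme with more than 1 probe set. Beyond this arithmetic, the cause of these moves was not tested. No call changed direction, but medians near 0 changed sign: those of the SUMO enzymes and silencing factors in KO against parental cells and between the add-backs did so in at least 1 alternative.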
